A study of Mus musculus with 6 samples.

Results

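The circular RNAs described here are exonic circles whose back-splice joins sites 10 kb or more apart in the genome. They were taken from the readable rows of an annotation list of the array's circRNAs, which gives each circle's type, host gene, coordinates and probe. Of 1257 readable rows, 1029 were exonic and 606 of these had a span of 10 kb or more, so that the long circles made up 58.9% of the exonic rows and stand against 14236 circRNA probes on the whole array. The rows had been kept by the study for a higher mean in the surgery group, so the direction of the members is fixed by the choice of rows and is not a finding. Within that list the readable rows followed the order of their probe sequences, and the probes of all 606 members begin with the same base, A.

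A circular RNA of this kind is made from a pre-mRNA when the spliceosome joins the 5′ splice site at the end of a downstream exon to the 3′ splice site at the start of an exon farther upstream. The product has no free ends, resists the exonuclease RNase R, and is told apart from the linear transcript only by the sequence across the back-splice junction. The span is the genomic distance between both sites. The introns inside it are usually spliced out, so a long span does not mean a long RNA. Neurons are rich in circRNAs, and many come from long genes of synapses, adhesion and signaling.

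Hippocampal total RNA came from 6 male C57BL/6J mice aged 12 months, all of which also took part in behavioral tests. The 3 mice of the surgery group received intramedullary nail fixation of a fracture of the left tibia under isoflurane with subcutaneous analgesia, and the 3 mice of the control group received the anesthesia and the analgesia without the fracture. The hippocampus was taken 72 h later, linear RNA was removed with RNase R, and each sample was hybridized to its own one-color array. The RNA is of the whole hippocampus, so a change in the number of cells of a type and a change in RNA per cell cannot be told apart, and nothing in the sources used here states whether a sample was pooled.

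Levels are log2 quantile-normalized spot intensities, and a difference is the surgery mean minus the control mean on that log2 scale. All 606 members passed the filter on dim probes, as did 12499 of the 14236 probes. The members were marked as well above background on the surgery arrays in 584, 606 and 606 cases, and in 412, 578 and 555 cases on the arrays of the control group. Control replicate 1 therefore stood apart, with 68.0% of members and 65.0% of all circRNA probes above background, against 91.6% or more of members on each of the other arrays. All 12 neuron markers were matched as hosts of members, whereas 2 of 5 oligodendrocyte markers and none of the astrocyte (5), microglia (5) or endothelium (4) markers were matched to a probe, so most other cell types could not be read here. The circle of St18, an oligodendrocyte transcription factor gene, read 5.70, 5.42 and 5.50 after surgery, against 5.55, 5.44 and 5.29 in controls. A probe for the linear mRNA of Mbp, myelin basic protein, averaged over 10 spots, read 6.14, 5.97 and 5.79 against 5.63, 5.58 and 5.60, with every surgery array higher. Since linear RNA had been removed with RNase R, this signal is not read as the level of Mbp mRNA. Its part in the results was not tested. The 3 control arrays lay in slide row 1 with surgery replicate 1, and the other two surgery arrays lay in row 2.

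The probes of the leading members are shown first, because a circRNA is measured on this array only through 60 bases placed on its junction. Stxbp5l, Fgd4 and Csmd3 had the 3 largest differences of all members, Grm5 is the longest circle among the calls, and Dlg2 is the longest of all. Coordinates are from the annotation list, and 603 of 605 members matched to RefSeq genes of GRCm38.p6 lie within their host gene in that build. No part is in capitals because the junction cannot be placed in a single probe without the genome.
Stxbp5l, mmu_circRNA_29678, chr16:37200576-37291063, minus strand: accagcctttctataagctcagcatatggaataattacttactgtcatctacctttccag
Csmd3, mmu_circRNA_28581, chr15:47731926-47849820, minus strand: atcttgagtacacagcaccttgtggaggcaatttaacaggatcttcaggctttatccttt
Fgd4, mmu_circRNA_29342, chr16:16461594-16490606, minus strand: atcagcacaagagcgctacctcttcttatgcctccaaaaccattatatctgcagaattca
Grm5, mmu_circRNA_41814, chr7:87596116-87804064, plus strand: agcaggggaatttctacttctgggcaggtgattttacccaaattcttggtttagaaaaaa
Dlg2, mmu_circRNA_41861, chr7:91449754-92126642, plus strand: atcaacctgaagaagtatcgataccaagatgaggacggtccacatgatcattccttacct

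The 606 circles came from 541 host genes, of which 479 gave 1 member, 59 gave 2 and 3 gave 3. Spans ran from 10.1 kb to 676.9 kb with a median of 25.7 kb and quartiles of 16.4 and 45.5 kb. There were 220 members of 10 to 20 kb, 246 of 20 to 50 kb, 92 of 50 to 100 kb and 48 of 100 kb and over. Their host genes had a median length of 123.9 kb, against 64.5 kb for the hosts of the 423 shorter exonic circles of the same rows, and 61.7% of members against 32.1% of shorter circles sat in hosts over 100 kb. A member covered a median of 22.2% of its host gene and a shorter circle 4.95%. A larger host is implied in part by the span rule itself, since no gene under 10 kb can hold a member.

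The median probe GC was 43.3% in both long and shorter circles, and members ran from 31.7% to 58.3%. Of the members 326 lay on the plus strand and 280 on the minus strand, and of the shorter circles 214 and 209. The median distance from the start of the host gene to the circle was 48.9 kb for the members and 31.1 kb for the shorter circles. Chromosome 2 held the most members, 63, followed by chromosome 1 with 52 and chromosome 5 with 45, and the Y chromosome held 1.

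Counts at 2 thresholds frame the comparison of surgery with control. With Benjamini-Hochberg adjustment over all 12499 probes in limma, 2 members (0.33%) had an adjusted p under 0.05, where the background was 6 probes, all with a higher surgery mean, or 0.0984% of the 6095 probes with a higher surgery mean and 0.0480% of all tested. With so few, no contrast between these shares is read. At the fold change of at least 1.3 and unadjusted p of at most 0.05 that the study's methods use, here named a call, 55 members (9.08%) were called and none lower. Of the tested probes with a higher surgery mean, the like background for a list whose direction is fixed, 524 of 6095 or 8.60% were called (4.19% of all tested probes were called higher), and of the shorter exonic circles 33 of 423 (7.80%). The share among the long circles was near the background, and whether calls go with span was not tested. Without control replicate 1, 81 members (13.4%) were called against a background of 12.4% of the probes with a higher surgery mean. With surgery replicate 2 left out 51 members (8.42%) and 7.09% of the shorter exonic circles were called. Of all 12499 tested probes 458 were then called higher. The share among probes with a higher surgery mean was not taken for that fit, so no contrast with the 458 is read.

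The median difference of the members was 0.15 on the log2 scale, with quartiles of 0.07 and 0.26 and a range from -0.19 to 0.82. The tested probes with a higher surgery mean had a median of 0.14, the shorter exonic circles 0.12 and all tested probes -0.01. Every surgery array lay above every control array for 184 members (30.4%), against 27.6% of the probes with a higher surgery mean and 27.9% of the shorter circles. Of the members 23 had a lower surgery mean in this fit. With a normexp background correction (offset 16) before quantile normalization, no member had one.

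**Figure D1:**
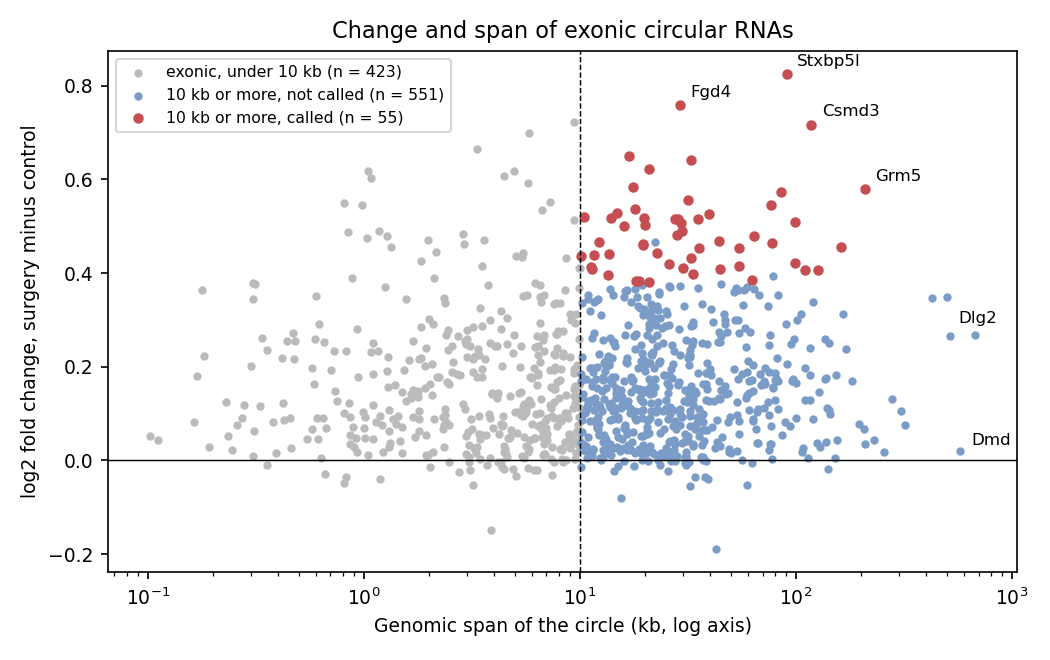
Each point is an exonic circle of the readable rows, with its genomic span in kb on a log axis and its log2 fold change (surgery minus control, 3 arrays each) on the vertical axis, and the dashed line marks 10 kb. The 55 called members have spans of up to 207.9 kb (Grm5), and none of the longer circles, such as those of Dlg2 and Dmd, is called.

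Stxbp5l encodes tomosyn-2, a protein that binds SNAREs and restrains vesicle release, and its circle mmu_circRNA_29678 showed the largest change of all members. Its log2 intensities were 7.11, 7.26 and 7.18 after surgery, against 6.49, 6.25 and 6.34 in controls. Every surgery array was above every control array by more than the spread of either group. The means were 7.18 ± 0.08 and 6.36 ± 0.12 (SD, n = 3 each), a difference of 0.82 (SE 0.10), or 1.77-fold, with an adjusted p of 0.0362 in limma. The circle spans 90.5 kb, 32.6% of its host gene.

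Csmd3 encodes a very large transmembrane protein built of CUB and sushi domains. Its circle, mmu_circRNA_28581, read 6.23, 6.38 and 6.37 after surgery and 5.52, 5.61 and 5.70 in the control group, with no overlap. The difference was 0.72 (SE 0.10), or 1.64-fold, with an adjusted p of 0.0442 in limma, and the spot was above background on 2 of 3 control arrays. The circle spans 117.9 kb but only 9.73% of its host gene. Neither adjusted p stayed under 0.05 when any 1 array other than control replicate 1 was left out, where they ran from 0.0512 to 0.302. Within slide row 1, which holds a single surgery array, the differences were 0.75 (Stxbp5l) and 0.62 (Csmd3). That array lay above all control arrays in both circles. With the row as a block both adjusted p were 0.196 in limma.

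The 10 largest differences among called members above background on all 6 arrays, by rule, belonged to Stxbp5l and to 9 other hosts with adjusted p from 0.0547 to 0.0848. Fgd4, a guanine nucleotide exchange factor for Cdc42, read 7.11, 7.36 and 7.49 after surgery against 6.81, 6.41 and 6.47, a difference of 0.76 (SE 0.13). Specc1l, which links actin and microtubules, read 7.72, 7.43 and 7.20 against 7.04, 6.72 and 6.65, a difference of 0.65 (SE 0.15). Ubac2, an endoplasmic reticulum protein with a ubiquitin-associated domain, read 6.10, 6.50 and 6.50 against 5.86, 5.81 and 5.56, a difference of 0.62 (SE 0.13). In these 3 circles the groups did not overlap, but the spread within a group reached 0.26 (SD of Specc1l after surgery).

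The next circles were tighter. Arsb, the lysosomal arylsulfatase that degrades dermatan and chondroitin sulfate, read 6.98, 6.92 and 6.91 after surgery and 6.40, 6.36 and 6.30 in controls, a difference of 0.58 (SE 0.09). Grm5, a metabotropic glutamate receptor, read 7.09, 7.25 and 7.25 against 6.69, 6.73 and 6.43, also a difference of 0.58 (SE 0.11). Ptprg, a receptor-type tyrosine phosphatase, read 6.08, 6.13 and 6.24 against 5.79, 5.52 and 5.42, a difference of 0.57 (SE 0.11). Each of the 3 had all surgery arrays above all control arrays.

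The remaining 3 of the 10 had the same separation. Lrch3, a leucine-rich repeat protein with a calponin homology domain, read 8.97, 8.79 and 8.60 against 8.39, 7.98 and 8.33, a difference of 0.56 (SE 0.13). Ptprn2, a phosphatase-like protein of dense-core vesicles, read 8.43, 8.63 and 8.59 against 7.98, 7.87 and 8.16, a difference of 0.55 (SE 0.11). Pdpk1, the kinase that phosphorylates Akt, read 6.74, 6.96 and 6.75 against 6.21, 6.30 and 6.34, a difference of 0.54 (SE 0.10).

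**Figure D2:**
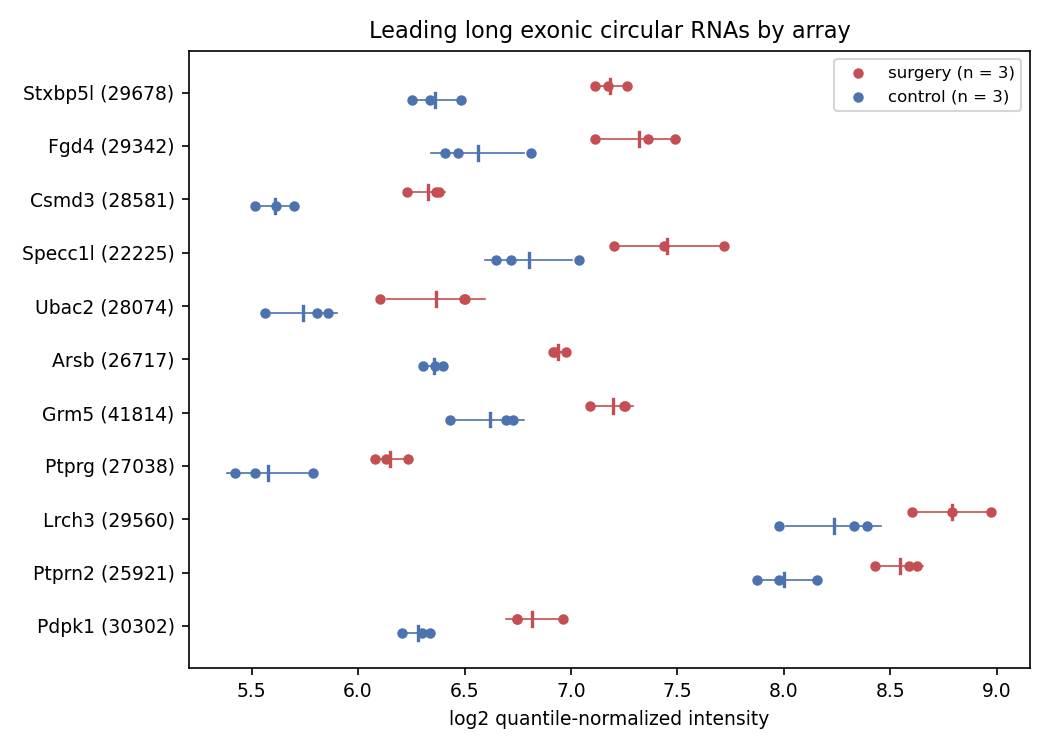
Points are the log2 quantile-normalized intensities of each array, with surgery in red and control in blue, ticks mark the group means and lines 1 SD to each side. In all 11 circles the lowest surgery array lies above the highest control array, and the gap is wide for Stxbp5l, Csmd3 and Arsb and narrow for Specc1l and Lrch3.

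The 55 called members came from 55 different host genes and lay on 18 chromosomes. Their log2 differences ran from 0.38 (Slc44a1, a choline transporter named after its values were seen) to 0.82, and their adjusted p from 0.0362 to 0.177. The groups did not overlap in 53 of them. Ehbp1 and Slc44a1, also singled out after their values were seen, passed both thresholds although an array of one group fell within the range of the other. Of all members 410 (67.7%) were above background on all 6 arrays, against 73.7% of all tested probes. Of the called members 37 were above background on all 6 arrays and 18 lacked 1 or more control arrays. All 55 had a higher surgery mean in each of the alternatives in which they were tested. The choice of rows and the fold threshold had largely fixed that direction. Of the 55, 31 were called in every fit that left out 1 array. The like count over all tested probes was not taken, so no trait of the members is read from the 31.

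Among members above background on all 3 surgery arrays and on no control array there were 13 (2.15%), 12 of them with a higher surgery mean. The background was 2.46% of the probes with a higher surgery mean (150) and 1.26% of all tested probes (158), so the members' share was near it. These 13 passed the filter only through the surgery arrays, so the p-value of such a circle, and a call, lend it no support, and 5 of the 55 calls are of this kind. A lower bound on the fold could be given for 11 of them. The bound sets the surgery mean against control values raised, where lower, to the dimmest signal marked as above background on that array. The 5 largest bounds, by rule, were those of Atrn, Inadl, Wdpcp, Fhod3 and Ptpra. Attractin (Atrn) was at least 1.42-fold higher (5.69, 5.74 and 5.61 against 5.36, 5.04 and 5.14). The multi-PDZ scaffold Inadl was at least 1.36-fold higher (5.36, 5.91 and 5.60 against 5.23, 5.13 and 5.08).

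Wdpcp, which acts in planar cell polarity and cilia, was at least 1.295-fold higher, the formin Fhod3 at least 1.28-fold and the receptor phosphatase Ptpra at least 1.24-fold. The fit gave these 5 circles adjusted p-values between 0.0693 and 0.107, which the filter conditions as said, and the measured means of Ptpra were 5.46 after surgery and 4.96 in controls. These are dim probes, and the fold of each depended on how background was treated. For Ptpra the difference ran from 0.30 to 1.97 over the alternatives.

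The share called was lowest under 1 kb and highest at 50 to 100 kb. It did not rise at every step of span, and no trend was tested. It was 8.64% at 10 to 20 kb (19 of 220), 8.54% at 20 to 50 kb (21 of 246), 10.9% at 50 to 100 kb (10 of 92) and 10.4% at 100 kb and over (5 of 48). Exonic circles of 1 to 10 kb had 8.24% (29 of 352) and those under 1 kb 5.63% (4 of 71). The median differences of these classes were 0.13, 0.15, 0.17 and 0.14 for the members and 0.13 and 0.12 for the shorter circles, against an interquartile range of 0.10 to 0.29 within the 50 to 100 kb class. Over the 606 members Spearman's correlation between span and difference was 0.06, between probe GC and difference -0.06 and between mean intensity and difference 0.12, all on the same 6 arrays. Called members had a median span of 29.0 kb and the others 25.3 kb.

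At the edge of the rule, the members just inside 10 kb were in Ric3, a chaperone of nicotinic receptors (10.059 kb, difference 0.18), Cdh2, N-cadherin (10.077 kb, -0.01) and Zcchc2, a zinc finger gene (10.079 kb, 0.44). The exonic circles just outside were in Nrg3, a neuregulin (9.987 kb, 0.02), Oxsr1, a stress-responsive kinase (9.978 kb, 0.41), and Med13l, of the Mediator complex (9.959 kb, 0.11). Each side of the threshold thus held 1 called circle among 3.

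The 10 longest circles spanned 228.6 to 676.9 kb, and none of them was called. Dlg2, which encodes the postsynaptic scaffold PSD-93, gave the longest, and the circle covers 34.3% of the gene. It read 5.96, 5.86 and 5.91 after surgery and 5.69, 5.65 and 5.59 in controls, a difference of 0.27 (SE 0.09), with no overlap but an adjusted p of 0.147 in limma. Of the 10, 1 is not described further, and of the other 9 only Dlg2 had groups that did not overlap.

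The netrin receptor gene Dcc (498.2 kb) had a difference of 0.35 (SE 0.14), and its control arrays were spread from 5.08 to 5.61 and reached above the lowest surgery array, 5.55. Anks1b, a postsynaptic ankyrin-repeat protein (517.8 kb), read 6.08, 6.42 and 6.45 against 5.89, 5.94 and 6.32, a difference of 0.26 (SE 0.14). Dystrophin (Dmd, 577.0 kb) read 5.72, 5.89 and 5.67 against 5.61, 5.89 and 5.72, a difference of 0.02 (SE 0.11). The other 5 were A830018L16Rik, Atrnl1 (attractin-like), Dpyd (pyrimidine breakdown), Lrrc7 (the synaptic scaffold densin) and Pard3b (cell polarity), with differences from 0.02 to 0.13 and SEs from 0.09 to 0.15.

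**Figure D3:**
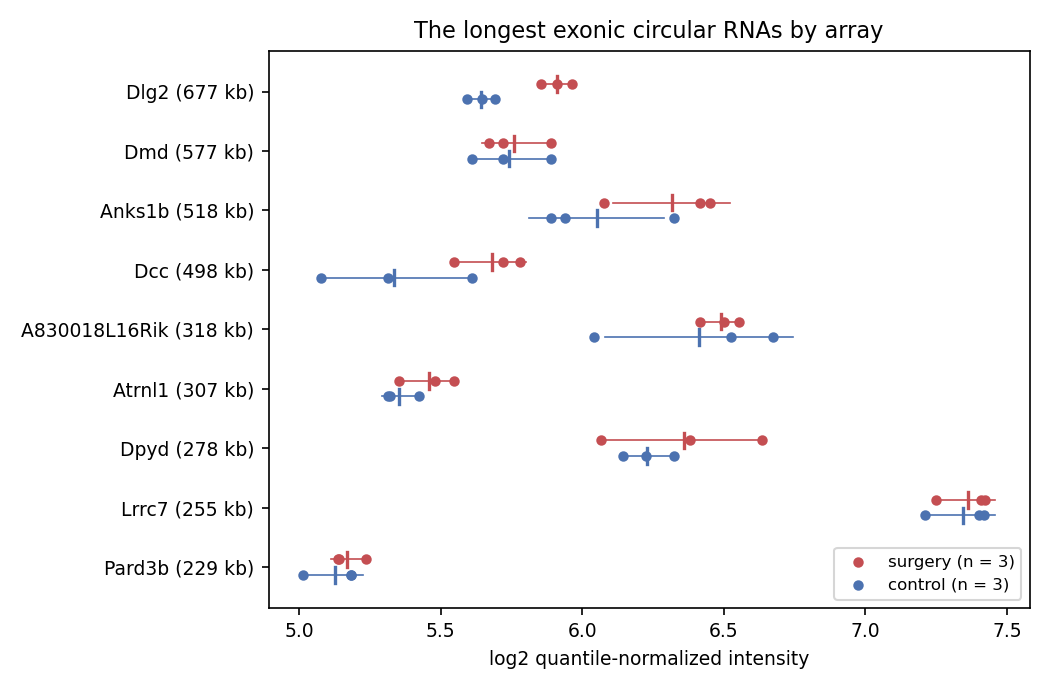
Points are the log2 quantile-normalized intensities of each array for 9 of the 10 members with the longest spans, surgery in red and control in blue, with ticks at the group means and lines of 1 SD to each side. The groups are apart for Dlg2 and overlap for the other 8, as in Dmd, where both groups run from about the same lowest to the same highest value.

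The 10 lists of host genes by function were drawn up from the members' own host genes, with earlier results known, so the counts describe and do not test. They hold 319 of the 606 members, of which 36 were called, and 19 of the 287 members in no list were called. Cell adhesion and axon guidance had 10 called of 38 members (26.3%) with a median difference of 0.17, against 8.60% and 0.14 among tested probes with a higher surgery mean. The 10 include Atrn and Ptpra, whose calls lend no support since no control array was above background. Over circles with 1 or more control arrays above background, the list had 8 called of 36 (22.2%), against 8.17% of the 5945 such probes with a higher surgery mean. By the other measure the list was near the background. Every surgery array lay above every control array for 12 of the 38 (31.6%), against 27.6% of the probes with a higher surgery mean. Chromatin and transcription regulators had 1 of 46 (2.17%) with a median of 0.12. In the share called, the other lists lay between the adhesion and the chromatin list.

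Those of the called adhesion and guidance circles that lie outside the naming rule are named after their values were seen. Besides Csmd3, Ptprg, Atrn and Ptpra they were Plxdc2, Astn1, Reln, Srgap1, Epha7 and Cntnap5b. Plxdc2, a transmembrane protein with a plexin-like domain, read 7.83, 7.82 and 7.86 after surgery and 7.30, 7.31 and 7.34 in controls, a difference of 0.52 (SE 0.08, adjusted p 0.0552), and the SD was 0.02 in either group. The circle of Reln, the secreted guide of neuronal migration, spans 99.0 kb and read 5.83, 6.14 and 6.16 against 5.42, 5.55 and 5.65, a difference of 0.51 (SE 0.12, adjusted p 0.0769). The circle of the ephrin receptor gene Epha7 covers 81.5% of its host and had a difference of 0.41 (SE 0.12). At the other end of the list the protocadherin Pcdh11x read 5.75, 5.83 and 5.70 against 5.55, 5.74 and 5.98, a difference of 0.00 (SE 0.12).

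Of the 36 circles of synaptic scaffold and active zone genes, 6 were called (16.7%), with a median of 0.19. Inadl is 1 of them, above background on no control array, and without it 5 of 35 were called (14.3%). Apart from Stxbp5l and Inadl these were Dtna and, named after their values were seen, Apba2, Ppp1r9a and Cttnbp2. Dtna (alpha-dystrobrevin) read 8.22, 8.17 and 7.99 against 7.67 on each control array, a difference of 0.46 (SE 0.09, adjusted p 0.0704). Ica1, an islet autoantigen of secretory vesicles, had the largest p of the list and read 8.13, 7.89 and 7.79 against 7.86, 7.99 and 7.91, a difference of 0.02 (SE 0.11).

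Of the 9 circles of glutamate and GABA receptor genes 2 were called (22.2%), Grm5 and, named after its values were seen, the NMDA receptor subunit gene Grin2a. Grin2a read 6.50, 6.22 and 6.31 against 6.21, 5.61 and 5.96, a difference of 0.42 (SE 0.15, adjusted p 0.161), with its lowest surgery array just above its highest control array. Gabra4, a GABA-A receptor subunit gene, read 6.67, 6.80 and 6.59 against 6.40, 6.36 and 6.30, a difference of 0.33 (SE 0.09), without overlap but under the fold threshold. Grik3, a kainate receptor gene, read 5.62, 5.51 and 5.29 against 5.37, 5.58 and 5.46, with a difference of 0.00 (SE 0.11).

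Ion channels and calcium handling had 2 called of 18 (11.1%). They were the sodium-proton exchanger gene Slc9a7, with a difference of 0.41 (SE 0.10), and the ryanodine receptor gene Ryr3, with 0.42 (SE 0.11). Kcnma1, the large-conductance potassium channel, had 0.00 (SE 0.11) for mmu_circRNA_27205 and 0.20 for mmu_circRNA_27222. The median of this list was 0.22.

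Regulators of small GTPases had 3 called of 33 (9.09%) with a median of 0.19, among them Fgd4 and Srgap1. Srgap1, a GTPase-activating protein of Slit and Robo signaling, read 5.44, 5.67 and 5.67 against 5.23, 5.25 and 5.01, and was above background on 1 control array. The ubiquitin and SUMO list had 7 called of 46 (15.2%) with a median of 0.16. Uimc1, which binds ubiquitin chains at DNA breaks, read 7.42, 7.37 and 7.23 against 6.89, 6.79 and 6.78, a difference of 0.52 (SE 0.09, adjusted p 0.0572).

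Ubr3, a ubiquitin ligase of the N-recognin family, had a difference of 0.51 (SE 0.10) for mmu_circRNA_33794 and 0.33 for mmu_circRNA_33797. Trim44 had -0.01 (SE 0.10). The list of protein kinases and phosphatases had 3 called of 39 (7.69%), Pdpk1, Ptpn4 and, named after its values were seen, Dgki. Dgki is a lipid kinase gene, so the list is not strictly of protein kinases and phosphatases. Vesicle transport and microtubules had 2 of 33 (6.06%), the sorting nexin Snx13 at 0.49 (SE 0.12) and the kinesin Kif6 at 0.53 (SE 0.13, mmu_circRNA_30573). The Kif6 circle mmu_circRNA_30572 was at 0.18 and Snx25 at 0.00 (SE 0.09).

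The chromatin list and the RNA-binding list had 1 call each. In the chromatin list Rcor3, a corepressor, read 7.12, 6.88 and 6.91 against 6.69, 6.47 and 6.43, a difference of 0.44 (SE 0.11, adjusted p 0.0872). The polycomb gene Scmh1 had 0.38 (SE 0.11) and fell just short of the fold threshold, and the DNA methyltransferase Dnmt3a had 0.00 (SE 0.15). RNA-binding and RNA processing genes had 1 of 24 called (4.17%), the splicing regulator Rbfox2 at 0.41 (SE 0.11), and Gigyf2, a translational repressor, had 0.02 (SE 0.09).

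**Figure D4:**
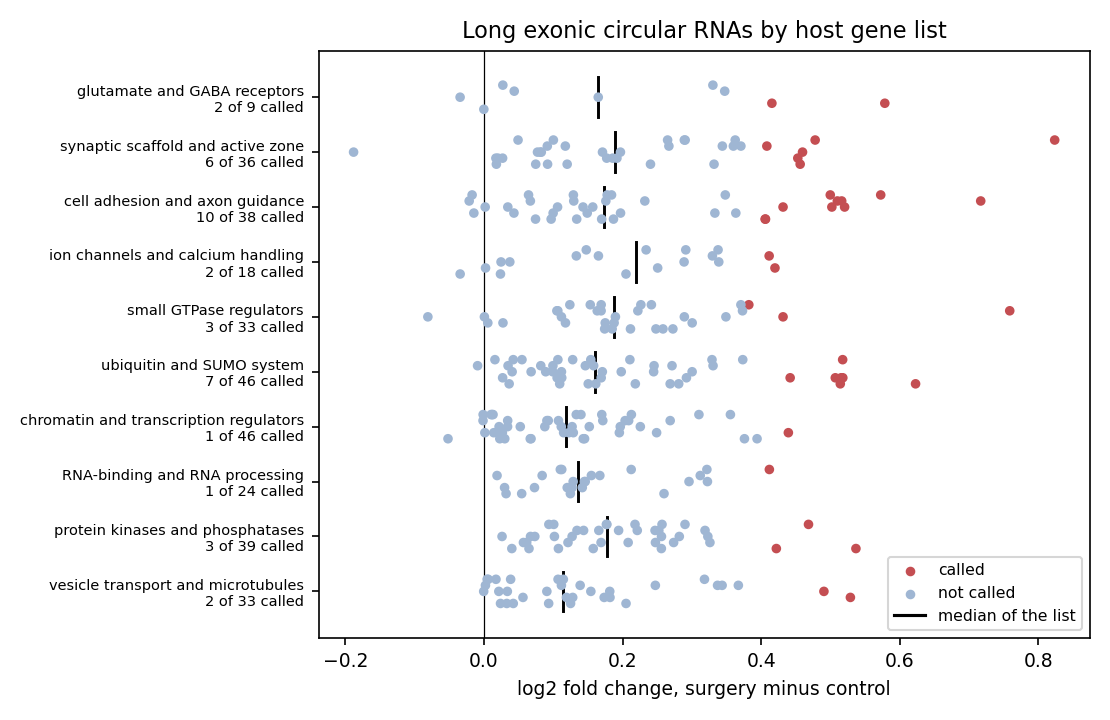
Each point is a long exonic circle placed by its log2 fold change (surgery minus control) in the list of its host gene, red where called, with a bar at the median of the list. Adhesion and guidance genes have 10 called circles, with Atrn and Ptpra above background on no control array, and chromatin regulators have 1, while the medians of the lists stay between 0.11 and 0.22.

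Where a gene gave several long circles, they could be set side by side as differences. The 62 hosts with 2 or more members held 127 members in 68 pairs, and the differences within a pair were apart by a median of 0.15 (0.01 to 0.75) on the log2 scale. In no host were all members called, in 10 hosts 1 was called and the other or others were not, and in 52 none was. Of the 68 pairs 48 overlapped in the genome and 25 of these were nested, 20 lay apart, and 12 shared 1 splice site. The pairs named below, apart from the hosts with 3 members, were chosen after their values were seen, and no test of their contrast is given.

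Stxbp5l showed the widest contrast. Beside mmu_circRNA_29678, whose difference was 0.82, its circle mmu_circRNA_29656 of 94.3 kb overlaps the first over part of the gene and read 6.17, 6.23 and 6.24 after surgery and 6.09, 6.53 and 5.79 in controls, a difference of 0.07 (SE 0.16). The control arrays of this second circle were the more scattered. For Atrn only the lower bound given above stands for one circle, and the other, mmu_circRNA_34582, read 5.44, 5.45 and 5.50 against 5.44, 5.52 and 5.51, a difference of -0.02 (SE 0.09). Plxdc2 had 0.52 for mmu_circRNA_008098 and 0.10 (SE 0.12) for mmu_circRNA_33007, which was above background on 3 of the 6 arrays.

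Circles that share a splice site let the junction be placed approximately from the probes alone. The stretch that both probes hold ends or begins at the shared site, unless bases beyond it also match by accident. This was not checked against the genome. Such stretches were 12 to 33 bases long in the 12 pairs, and the longest stretch shared by the other pairs had 10. Of these, 3 pairs are printed, with the shared stretch in capitals. In Rlf and Rabep1 the circles share the upstream site, the acceptor, and the capitals begin at or near the junction. In Dtnb they share the downstream site, the donor, and the capitals end at or near the junction.
Rlf, mmu_circRNA_003194, chr4:121170618-121190258, minus strand: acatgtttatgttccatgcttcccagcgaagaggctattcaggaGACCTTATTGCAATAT
Rlf, mmu_circRNA_37545, chr4:121159192-121190258, minus strand: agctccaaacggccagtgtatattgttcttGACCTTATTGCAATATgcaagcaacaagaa
Rabep1, mmu_circRNA_001848, chr11:70874746-70884968, plus strand: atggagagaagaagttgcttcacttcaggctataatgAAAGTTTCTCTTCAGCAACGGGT
Rabep1, mmu_circRNA_001327, chr11:70874746-70887171, plus strand: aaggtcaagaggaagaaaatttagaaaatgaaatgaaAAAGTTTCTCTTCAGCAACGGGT
Dtnb, mmu_circRNA_003139, chr12:3596649-3648389, plus strand: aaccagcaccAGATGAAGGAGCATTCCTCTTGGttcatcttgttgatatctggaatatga
Dtnb, mmu_circRNA_006216, chr12:3632810-3648389, plus strand: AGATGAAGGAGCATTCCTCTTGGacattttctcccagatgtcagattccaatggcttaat

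These pairs differ only in the site at the other end of the circle. For Rlf, a zinc finger gene, the circle of 19.6 kb read 7.08, 6.98 and 6.92 after surgery and 6.69, 6.41 and 6.50 in controls, a difference of 0.46 (SE 0.10), and it was called. The circle of 31.1 kb, which holds the first one, read 5.32, 5.49 and 5.36 against 5.42, 5.32 and 5.40, a difference of 0.01 (SE 0.09). The groups were apart in the one and overlapped in the other.

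For Rabep1, an effector of Rab5 on early endosomes, the difference was 0.34 (SE 0.14) for the circle of 10.2 kb and 0.11 (SE 0.10) for that of 12.4 kb. The 10.2 kb circle read 8.23, 8.70 and 8.29 against 8.23, 7.94 and 8.05, so that the lowest surgery array and the highest control array were about level.

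Dtnb, Ptpn4 and Stau2 each gave 3 long circles. In Dtnb (beta-dystrobrevin) mmu_circRNA_003139 (51.7 kb) read 8.28, 8.29 and 8.44 against 7.95, 8.003 and 7.97, a difference of 0.36 (SE 0.09, adjusted p 0.0900) with no overlap but just under the fold threshold. The circle mmu_circRNA_006216 (15.6 kb), which shares its donor, had 0.12 (SE 0.10), and mmu_circRNA_24560 (48.3 kb), from farther downstream, had 0.08 (SE 0.09). Both of these overlapped between groups.

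In Ptpn4, a non-receptor tyrosine phosphatase, mmu_circRNA_003388 (44.1 kb) read 6.17, 6.55 and 6.56 against 6.09, 5.81 and 5.98, a difference of 0.47 (SE 0.13), and it was called. The circles of 49.5 and 10.5 kb had 0.09 (SE 0.10) and 0.10 (SE 0.09) and were not. In Stau2, which carries RNA into dendrites, none was called. The circle of 46.4 kb (mmu_circRNA_005382) read 10.02, 10.12 and 9.85 against 9.73, 9.58 and 9.75, a difference of 0.31 (SE 0.10). That of 22.9 kb had 0.32 (SE 0.14), with control arrays from 10.61 to 11.25, and that of 74.4 kb had 0.12 (SE 0.13).

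**Figure D5:**
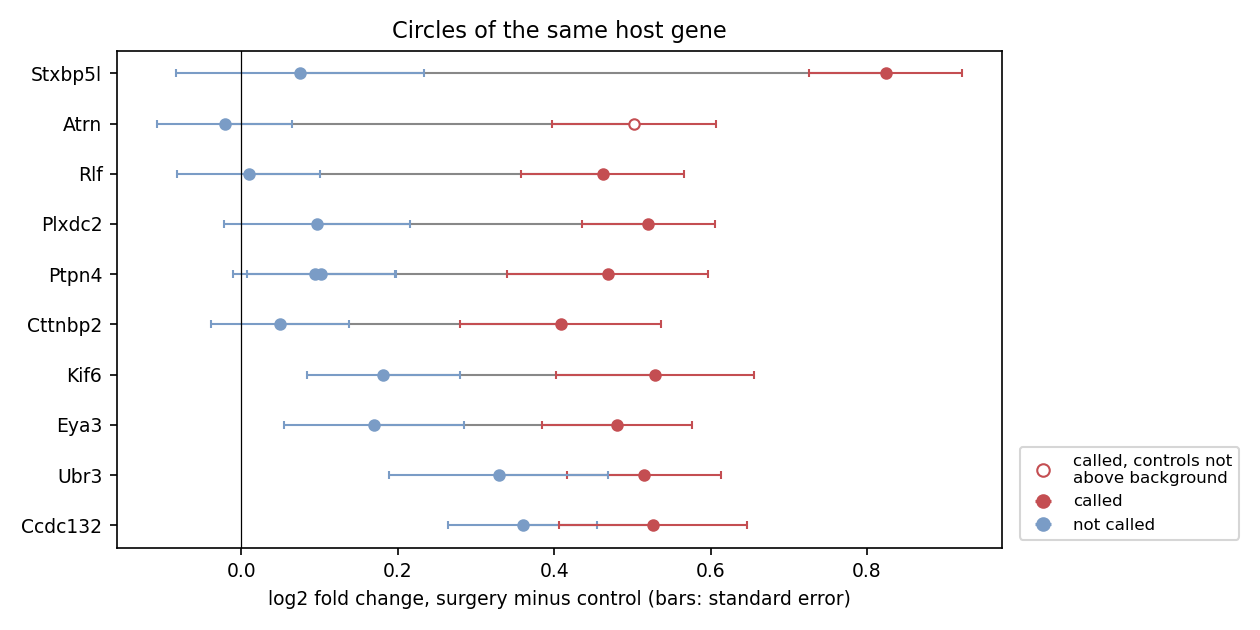
For the 10 hosts with 1 called circle and 1 or more not called, each point is the log2 fold change of a circle (surgery minus control), with its standard error as a bar, red for called and an open circle where no control array was above background (Atrn). Stxbp5l has the widest contrast, 0.82 against 0.07, and in Ubr3 and Ccdc132 the bars of both circles overlap.

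Slide position moved with the groups in part, since 2 of the 3 surgery arrays were in row 2 and no control array was. Within row 1 surgery replicate 1 could be set against the 3 control arrays. There the median difference was 0.12 over the members and 0.50 over the 55 called members, on a single surgery array. Of the called members 54 lay above all control arrays there, but that array had a part in choosing them. The part of slide position in the results was not tested. With slide row as a block 39 of the 55 called members were still called and 37 other members were newly called. Of the 76 then called, 2 were lower after surgery. With the block 131 members had a lower surgery mean, against 23 without it.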

How the data were processed

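The authors scanned the one-color arrays, read them with Agilent Feature Extraction 11.0.1.1 and deposited each spot's median signal as a raw intensity, next to a background-subtracted, detrended intensity (the processed signal) and marks for spots well above background. Span, host gene, type and probe sequence came from the study's circRNA annotation list, whose other columns (the authors' intensities, fold changes and p-values) were not used. Its start coordinates count from 0 and are printed here from 1. Genes were matched to RefSeq GRCm38.p6 (605 of 606 members, 579 by transcript and 26 by symbol).

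Median signals of all 15712 spots were quantile normalized and log2 transformed. A probe was tested if well above background and positive and significant on at least 3 of 6 arrays, with spots marked not uniform set to missing (none among members). The groups were compared in R 4.3.3 with limma 3.58.1 (lmFit, then eBayes), and p-values were adjusted by Benjamini-Hochberg over 12499 probes. The methods' thresholds (fold 1.3, unadjusted p 0.05) were counted as calls. The script was tested on simulated data. No spot was saturated, and the number of arrays limits the precision. The labels name no shared source for equal replicate numbers, and p-values measure the spread between these mice only.

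The members and lists were chosen with earlier results of these data known. Named were members with adjusted p under 0.05, the 10 largest called changes above background on all 6 arrays, the 10 longest, those of hosts with 3 members, 3 on each side of 10 kb, the 5 largest bounds, and in each list the 2 smallest p and the largest. Other called or paired circles are marked as chosen after their values were seen. Some circles that the rule names are not reported here. Alternatives changed the test, background correction, normalization, filter, replicate and slide blocks, and left out each array in turn, keeping the normalized values. The normexp correction together with the methods' t-test was added after seeing the data. Python 3.11.15 with matplotlib 3.10.9 drew the figures.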

Additional observations from a re-analysis of the deposited data

How the results depend on the processing

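All 30 named circles that were called kept a higher surgery mean in every alternative that tested them. The choice of rows and the fold threshold had largely fixed that beforehand, and every alternative used the same arrays. Of the 34 named but not called, 21 changed sign in 1 or more of the 24 alternatives. No direction is read for either set. The number of members called (55) was 103 without normalization between arrays, 119 with the processed signal scaled to the 75th percentile over non-control spots, 135 with the processed signal quantile normalized and 22 with normexp at offset 50. Calls over all tested probes (766) were 1334, 2857, 2398 and 274 in these 4 settings, 3181 with scaling over probes detected on all 6 arrays and 1219 with slide row as a block. The median difference of members (0.15) was 0.20 with scaling over non-control spots, 0.24 with the quantile-normalized processed signal and 0.10 with normexp at offset 50. Scaling over the detected probes moved the median of all tested probes to -0.15, and 80 members were then called higher and 2 lower. The split of all calls, 524 higher and 242 lower, became 1097 and 1760 with scaling over non-control spots and 750 and 2431 with scaling over detected probes.

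The number of members with an adjusted p under 0.05 (2) was 17 with an intensity trend, 17 with array weights, 18 without normalization, 10 with the quantile-normalized processed signal, 7 with normexp at offset 16 and 1 with that correction and the methods' t-test. Over all 12499 tested probes the number (6) was 153, 113, 157, 84, 59 and 3 in these settings, in the same order. The number of members was 0 with the methods' t-test alone (47 members called), with scaling over detected probes (82 called), with normexp at offset 50 (22 called), with detection on all 6 arrays (37 called) and with slide row as a block (76 called). Over all tested probes it was 1 with scaling over detected probes and 0 in the others. The methods' t-test called 393 of the 6095 probes with a higher surgery mean (6.45%), and detection on all 6 arrays gave 590 calls over 9214 tested probes. Leaving out 1 array in turn gave 0 to 10 members with an adjusted p under 0.05 (10 without control replicate 1 and 0 without any other), 51 to 81 called members, and 657 to 1148 calls over all probes. Without control replicate 1, 82 of all tested probes had an adjusted p under 0.05. With the replicate number as a block, 22 members had an adjusted p under 0.05 and 57 were called. Over all 12499 tested probes the block gave 199 with such a p and 797 calls, 540 of them higher. Deviations of same-numbered arrays from their group means correlated at 0.28, 0.25 and -0.02, and those numbered 1 and 2 correlated best with their own number in the other group while those numbered 3 did not. This is a hint from the data, not the design, and whether the numbers pair the samples is not settled. The causes of these changes were not tested.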
